A study of Mus musculus with 18 samples.

Results

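The AP-1 and immediate-early genes described here are the 10 genes Fos, Fosb, Fosl1, Fosl2, Jun, Junb, Jund, Atf3, Egr1 and Ier3, taken by symbol from the 16873 genes of the deposited table. All 10 were found in the table and all 10 passed the filter on low values, with 14455 genes tested in all. RNA was measured in primary mouse hepatocytes from livers without tumor, in 18 libraries. In 9 libraries the cells came from Mtdh KO mice and in 9 from age-matched WT mice. Cells of each genotype were treated with CM, TNFa or TGFb, which gives CM KO, CM WT, TNFa KO, TNFa WT, TGFb KO and TGFb WT, with 3 biological replicates each. CM is medium conditioned by Kupffer cells, the resident macrophages of the liver, that had received Py8119-EVPs, TNFa is an inflammatory cytokine and TGFb is a profibrotic and growth-restraining cytokine. No untreated group was analysed here, so every treatment effect below is a difference between a pair of treatments. The labels do not give doses, treatment times, the sex or exact age of the mice, or which part of Mtdh was deleted and how. They also do not say whether replicates are separate mice, or whether a replicate number marks a mouse or preparation shared across treatments.

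AP-1 is a transcription factor made of a pair of basic leucine zipper proteins, usually a FOS protein with a JUN protein. FOS proteins cannot pair with themselves, whereas JUN proteins can, and the dimers bind the site TGACTCA or the related cyclic AMP response element TGACGTCA. Many of these genes are immediate-early genes, which growth factors, cytokines and stress switch on without new protein synthesis, through MAP kinases acting on factors that already sit at the promoter. In liver they are known for their rapid rise after partial hepatectomy and during isolation of hepatocytes.

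The promoters of Fos, Fosb, Junb and Atf3, the 4 members found with the core TGACG of the cyclic AMP response element, are shown. They were picked because these 4 genes carry most of the differences between treatments described below. A link between the core and those differences was not tested. Each line gives the 250 bases before the gene's start from RefSeq on GRCm38.p6, 5′ to 3′ on the gene's strand, with TGACG, or CGTCA where it lies on the other strand, in capitals.
Fos, chr12:85473640-85473889, + strand: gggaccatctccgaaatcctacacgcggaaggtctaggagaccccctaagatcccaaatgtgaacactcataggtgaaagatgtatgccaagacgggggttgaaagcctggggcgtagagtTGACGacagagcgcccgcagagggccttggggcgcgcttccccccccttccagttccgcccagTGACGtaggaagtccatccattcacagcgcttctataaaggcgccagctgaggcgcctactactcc
Fosb, chr7:19310046-19310295, - strand: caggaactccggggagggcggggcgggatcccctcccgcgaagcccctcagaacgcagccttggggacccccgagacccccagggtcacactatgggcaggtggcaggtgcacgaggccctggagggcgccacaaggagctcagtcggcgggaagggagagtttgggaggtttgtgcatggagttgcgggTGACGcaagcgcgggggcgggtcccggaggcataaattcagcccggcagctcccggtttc
Junb, chr8:84978749-84978998, - strand: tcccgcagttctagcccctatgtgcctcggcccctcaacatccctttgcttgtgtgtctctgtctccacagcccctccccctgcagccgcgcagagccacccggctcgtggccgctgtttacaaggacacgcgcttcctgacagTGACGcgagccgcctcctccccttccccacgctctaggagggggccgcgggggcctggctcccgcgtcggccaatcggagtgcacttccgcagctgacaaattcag
Atf3, chr1:191183334-191183583, - strand: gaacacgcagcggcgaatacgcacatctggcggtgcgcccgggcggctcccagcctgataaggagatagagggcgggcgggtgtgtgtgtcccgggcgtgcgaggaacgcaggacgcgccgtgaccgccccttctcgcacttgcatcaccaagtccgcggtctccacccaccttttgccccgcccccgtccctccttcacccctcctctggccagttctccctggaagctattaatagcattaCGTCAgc
The promoter table held 8 of the 10 members, without Fosl1 and Egr1. The core was in 4 of these 8 windows, and in 17.8% of the 32851 windows of this length in the table, both strands searched. It was not in the windows of Fosl2, Jun, Jund or Ier3. The full AP-1 site TGACTCA was in 0 of the 8 windows (4.46% of all windows), and the full element TGACGTCA, which contains the core, was in 0 of 8 (1.55% of all). The serum response motif (CArG box) was in 0 of 8 and in 1.47% of all windows. Bases further from the start were not searched, so this count does not show that these genes lack the motif. The TATA box TATAAA was in the Fos window and in 12.4% of all windows, and the kappaB motif was in those of Fos, Fosb, Fosl2 and Ier3 and in 7.25% of all. These are matches of letters in a short window and not measured binding sites.

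Depth, estimated from the spacing of low values, was 19.4 to 35.6 M reads on the genes of the table, and a member had an estimated 258 to 8426 reads in a library. Mtdh, the deleted gene, had a normalized value of 581 to 973 in the KO libraries and 10060 to 13720 in the WT libraries, so each library went with its label. The 8 hepatocyte markers held 10.4% to 10.5% of a library's summed values in CM KO and 8.49% to 8.71% in CM WT, 7.14% to 7.65% in TNFa KO and 7.53% to 7.66% in TNFa WT, and 11.6% to 12.2% in TGFb KO and 9.08% to 9.6% in TGFb WT. Alb, at 1290000 to 2730000 over the libraries, was the largest of the 8. Of these markers, 3 rose and 0 fell in KO with CM, 2 rose and 2 fell with TNFa, and 3 rose and 0 fell with TGFb. For the average over treatments 3 rose and 3 fell. The 12 Kupffer cell and macrophage markers summed to 4825 to 5049 in CM KO and 2337 to 2869 in CM WT, to 6325 to 7292 in TNFa KO and 3402 to 4057 in TNFa WT, and to 4935 to 5989 in TGFb KO and 2774 to 3316 in TGFb WT. Of the 12, Timd4 was at 0 in 4 libraries, and 8 rose in KO with CM, 7 with TNFa and 9 with TGFb. The 8 sinusoidal endothelial markers summed to 3355 to 3427 in CM KO and 2079 to 2590 in CM WT, to 4410 to 4529 in TNFa KO and 2183 to 2567 in TNFa WT, and to 3364 to 3707 in TGFb KO and 2560 to 2769 in TGFb WT, and 1 of them rose in KO with CM, 3 with TNFa and 1 with TGFb. Clec4g and Kdr were each at 0 in 1 library. Between treatments, 7 of the 8 hepatocyte markers fell in KO and 4 in WT in TNFa against TGFb, and 0 rose in either. The 5 cholangiocyte markers summed to 42370 to 46150 in TGFb KO and 10190 to 11090 in CM KO. Cldn4 alone ranged from 2395 to 38610 over the libraries, whereas Krt19, Krt7 and Epcam reached at most 349, 65 and 233. In CM KO against TGFb KO, 3 of the 5 fell, 0 rose, and 2 had estimates above 0. Macrophages and endothelial cells also express AP-1 genes. The part of these marker differences in the KO results and in the treatment comparisons below was not tested. In bulk RNA, fewer cells of a type and less RNA per cell cannot be told apart.

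In the values below, a level is the deposited normalized value and a difference is a log2 fold change with its standard error from a limma-trend model of all 18 libraries (3 per group), on the log2(value + 1) scale. A gene rose or fell where the Benjamini-Hochberg adjusted p over all genes tested was below 0.05. Replicates carry the numbers of the labels.

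FOS itself, the founding partner of JUN in AP-1, is encoded by Fos (ENSMUSG00000021250, chr12:85520664-85524047, + strand, mm39). Its level was 819, 534 and 458 in CM KO, against 359, 406 and 374 in CM WT. Under TNFa the level was 557, 478 and 336 in KO and 426, 353 and 339 in WT, and with TGFb it was 1177, 1070 and 1006 in KO and 679, 534 and 498 in WT. The KO libraries lay above all WT libraries with CM and with TGFb, and overlapped them with TNFa. Fos rose in KO with TGFb by 0.94 ± 0.19 (adjusted p = 0.000962) and with CM by 0.62 ± 0.19 (adjusted p = 0.0379), and differed by 0.27 ± 0.19 with TNFa (adjusted p = 0.477). CM KO replicate 1, with 819, was also the deepest library. The rise with CM was lost without CM KO 1 (0.38, adjusted p = 0.308), CM KO 2 (0.69, 0.056), CM WT 1 (0.58, 0.116), CM WT 2 (0.67, 0.059) or CM WT 3 (0.61, 0.076). It was also lost with no filter (adjusted p = 0.0544), with quantile normalization (0.0522), with equal totals (0.069) and when only the groups compared were fitted (0.125). Between treatments, Fos fell by 1.27 on the log2 scale in TNFa KO against TGFb KO (SE 0.19, adjusted p = 6.99e-06) and by 0.89 in CM KO against TGFb KO (SE 0.19, adjusted p = 0.00226). In WT it fell by 0.61 with TNFa against TGFb (SE 0.19, adjusted p = 0.0329). This last call was lost without TNFa WT 2 (-0.57, adjusted p = 0.0983), TNFa WT 3 (-0.54, 0.126), TGFb WT 1 (-0.48, 0.191) or TGFb WT 2 (-0.65, 0.0578), and with equal totals (-0.49, 0.0852). With CM against TGFb the WT difference was -0.575 ± 0.19 and lay at the threshold (adjusted p = 0.0504). It passed without TNFa KO 1 (0.0465), TNFa KO 3 (0.0335), CM KO 1 (0.0322) or CM KO 3 (0.0407), none of which is in the comparison. It also passed with a pseudocount of 5 (0.0475), a mean of 50 or more (0.0412) and a block for replicate number (0.0225).

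FOSB resembles FOS in structure and is, like it, a strong activator in AP-1 dimers. Its gene Fosb (ENSMUSG00000003545, chr7:19036621-19043976, - strand, mm39) had a level of 824, 600 and 494 in CM KO, against 650, 661 and 474 in CM WT. With TNFa it was 304, 345 and 320 in KO and 254, 231 and 198 in WT, and with TGFb it was 1196, 773 and 1118 in KO and 377, 409 and 404 in WT. KO and WT libraries overlapped with CM and did not overlap with TNFa or TGFb. With TGFb, Fosb rose in KO by 1.35 ± 0.19 (adjusted p = 5.9e-06), the highest KO fold change of any member under any treatment. The difference was 0.51 ± 0.19 with TNFa (adjusted p = 0.106) and 0.09 ± 0.19 with CM (adjusted p = 0.857). The KO effect with CM was 1.26 lower than that with TGFb (difference -1.26 ± 0.27, adjusted p = 0.0279). This difference of effects was lost without TGFb KO 1 (-1.14, adjusted p = 0.0797), TGFb KO 3 (-1.19, 0.0934), TGFb WT 1 (-1.225, 0.0707), TGFb WT 2 (-1.28, 0.0575), TGFb WT 3 (-1.275, 0.0815), CM KO 2 (-1.23, 0.0717), CM KO 3 (-1.09, 0.112), CM WT 1 (-1.19, 0.0814) or CM WT 2 (-1.18, 0.0729). The KO effect with TNFa less that with TGFb was -0.84 ± 0.27 (adjusted p = 0.135), and passed without TGFb KO 2 (-1.03, 0.0431).

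Between treatments, Fosb was lowest with TNFa in both genotypes. It rose in CM against TNFa by 0.95 ± 0.19 in KO (adjusted p = 0.000634) and by 1.37 ± 0.19 in WT (adjusted p = 6.24e-06). In TNFa against TGFb it fell by 1.645 in KO (SE 0.19, adjusted p = 7.51e-08) and by 0.80 in WT (SE 0.19, adjusted p = 0.00337). In CM against TGFb the estimates had opposite signs. The difference was -0.69 ± 0.19 in KO (adjusted p = 0.017), where the libraries overlapped, and 0.57 ± 0.19 in WT (adjusted p = 0.0507), where they did not. The KO call was lost without CM KO 2 (-0.66, adjusted p = 0.0608), CM KO 3 (-0.52, 0.137), TGFb KO 1 (-0.57, 0.113) or TGFb KO 3 (-0.62, 0.0848). The WT difference passed without TNFa WT 3 (0.0496), TGFb KO 2 (0.0375), CM KO 1 (0.0417), CM KO 3 (0.0421) or CM WT 3 (0.72, 0.0198). It also passed with equal totals (0.64, 0.0274), a pseudocount of 5 (0.0491), a mean of 50 or more (0.0404) and a block for replicate number (0.0486).

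FRA-1 and FRA-2, the FOS-related proteins encoded by Fosl1 and Fosl2, lack the strong activation domain of FOS. Fosl1 (ENSMUSG00000024912, chr19:5497575-5505974, + strand, mm39) had a level of 581, 743 and 701 in CM KO, against 547, 842 and 539 in CM WT. Under TNFa the level was 1177, 922 and 1298 in KO and 814, 598 and 758 in WT, and with TGFb it was 624, 485 and 828 in KO and 519, 481 and 491 in WT. KO and WT did not overlap with TNFa and overlapped with CM and TGFb. Fosl1 rose in KO with TNFa by 0.64 ± 0.185 (adjusted p = 0.0268), with 0.34 ± 0.185 for TGFb (adjusted p = 0.268) and 0.09 ± 0.185 for CM (adjusted p = 0.838). The rise with TNFa was lost without TNFa KO 1 (0.61, adjusted p = 0.0928), TNFa KO 3 (0.54, 0.129), TNFa WT 2 (0.51, 0.145) or TNFa WT 3 (0.68, 0.054), and when only the groups compared were fitted (0.0535). Fosl1 was the member whose KO level was highest with TNFa, with a rise of 0.83 ± 0.185 in TNFa KO against TGFb KO (adjusted p = 0.00109). It fell by 0.74 in CM KO against TNFa KO (SE 0.185, adjusted p = 0.00557). In WT the difference of TNFa against TGFb was 0.53 ± 0.185 with libraries that did not overlap, and its adjusted p was 0.0557. It passed without TNFa KO 2 (0.0475), TNFa WT 2 (0.66, 0.0302), TGFb KO 2 (0.0384), TGFb KO 3 (0.0387) or CM WT 2 (0.0316). It also passed with equal totals (0.64, 0.0177), quantile normalization (0.0446), a mean of 50 or more (0.0465), library weights (0.58, 0.0126) and only the groups compared (0.0412).

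Fosl2 (ENSMUSG00000029135, chr5:32293145-32315186, + strand, mm39) had the narrowest range of the FOS family. Its level was 5691, 5948 and 6269 in CM KO, against 5747, 5183 and 5121 in CM WT. With TNFa it was 5963, 6226 and 6185 in KO and 5585, 6396 and 6393 in WT, and with TGFb it was 6565, 6547 and 6231 in KO and 6910, 6745 and 7581 in WT. Its KO difference did not pass with CM (0.16 ± 0.08, adjusted p = 0.271), TNFa (0.00 ± 0.08, adjusted p = 0.992) or TGFb (-0.13 ± 0.08, adjusted p = 0.345), although the TGFb KO libraries lay below all TGFb WT libraries. With equal totals the TGFb difference passed (-0.24, adjusted p = 0.0434). Averaged over treatments the KO difference was 0.01, with a 95% interval of -0.09 to 0.11. Between treatments Fosl2 fell by 0.40 in CM WT against TGFb WT (SE 0.08, adjusted p = 0.000858), and the same pair in KO differed by -0.11 ± 0.08 (adjusted p = 0.449). TNFa WT against TGFb WT, whose libraries did not overlap, differed by -0.21 ± 0.08 (adjusted p = 0.0935) and passed with library weights (-0.22, adjusted p = 0.046).

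**Figure D1:**
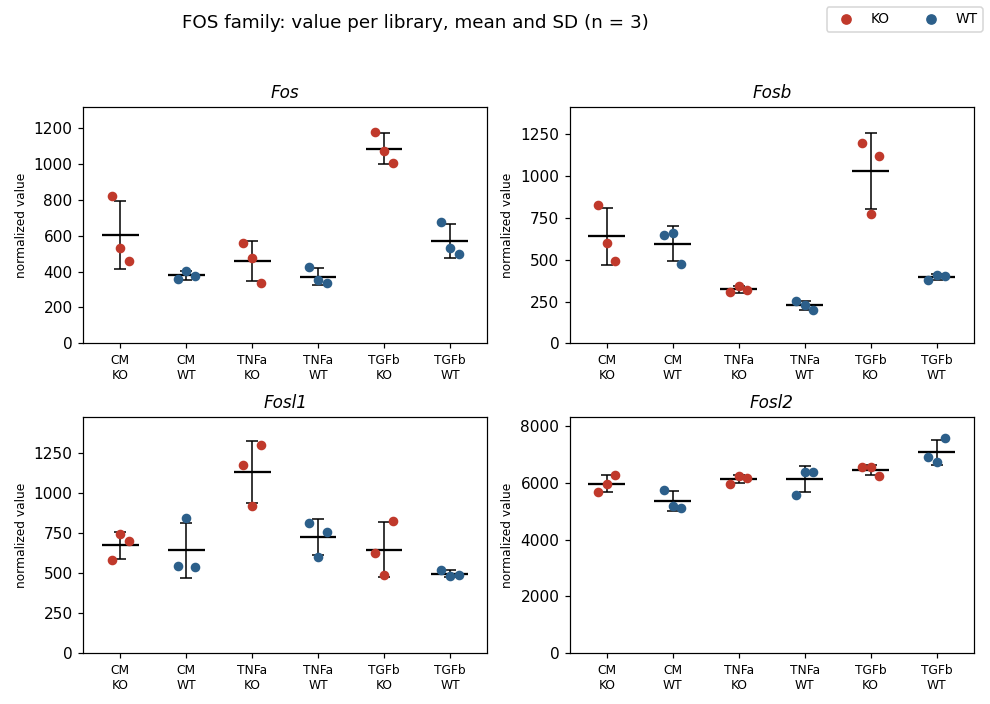
Normalized value of the FOS family genes in each library (points), with the group mean and SD (black, n = 3), for KO (red) and WT (blue) under CM, TNFa and TGFb. Fos and Fosb reach their highest values in TGFb KO, Fosl1 in TNFa KO, and Fosl2 stays between 5121 and 7581 in all 18 libraries.

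Among the JUN genes, Jun (ENSMUSG00000052684, chr4:94937271-94940459, - strand, mm39), whose product c-JUN is a main substrate of the JNK kinases and is needed for liver regeneration in mice, rose in KO under every treatment. Its level was 2385, 2548 and 2237 in CM KO, against 1648, 2008 and 2022 in CM WT. Under TNFa the level was 2556, 2636 and 2807 in KO and 2090, 1775 and 2067 in WT, and with TGFb it was 3176, 2710 and 2825 in KO and 2013, 2296 and 2094 in WT. KO libraries were above all WT libraries of the same treatment in each case. The rise was 0.34 ± 0.10 with CM (adjusted p = 0.0297), 0.43 ± 0.10 with TNFa (adjusted p = 0.00587) and 0.44 ± 0.10 with TGFb (adjusted p = 0.0029), and 0.41 ± 0.06 averaged over treatments (adjusted p = 3.9e-06). The call with CM was lost without CM KO 1 (0.34, adjusted p = 0.0847), CM KO 2 (0.29, 0.14) or CM WT 1 (0.24, 0.201), with equal totals (0.26, 0.0951) and when only the groups compared were fitted (0.105). That with TNFa was lost without TNFa WT 2 (0.36, 0.0513). No pair of treatments passed for Jun in either genotype, with differences of -0.28 to -0.07. With equal totals 1 pair passed, CM KO against TNFa KO (-0.31, adjusted p = 0.0257).

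JUNB, a JUN protein that can both oppose and replace c-JUN, is encoded by Junb (ENSMUSG00000052837, chr8:85701113-85705347, - strand, mm39). Its level was 1656, 1514 and 1605 in CM KO, against 978, 1006 and 1112 in CM WT. With TNFa it was 1548, 1424 and 1628 in KO and 1603, 1662 and 1629 in WT, and with TGFb it was 3672, 3169 and 3193 in KO and 2686, 2664 and 2820 in WT. Each TGFb library was above every CM and TNFa library, and CM WT lay below every other group. In KO, Junb rose with CM by 0.63 ± 0.10 (adjusted p = 3.41e-05) and with TGFb by 0.29 ± 0.10 (adjusted p = 0.0415), and differed by -0.09 ± 0.10 with TNFa (adjusted p = 0.661). The rise with TGFb was lost without TGFb KO 1 (0.22, adjusted p = 0.222), TGFb KO 3 (0.33, 0.0568), TGFb WT 1 (0.28, 0.115), TGFb WT 2 (0.28, 0.125), TGFb WT 3 (0.32, 0.0686), CM KO 1 (0.29, 0.0503) or TNFa KO 1 (0.29, 0.0505). With equal totals it was 0.19 (adjusted p = 0.219), and when only the groups compared were fitted its adjusted p was 0.0577. The KO effect with CM exceeded that with TNFa by 0.72 ± 0.14 (adjusted p = 0.0096), and this call was kept in every fit with a library left out and under every other setting tried.

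Junb was the JUN gene called between treatments. It fell by 1.07 in CM KO against TGFb KO (SE 0.10, adjusted p = 2.61e-09) and differed by -1.40 ± 0.10 in CM WT against TGFb WT (adjusted p = 8.85e-12). In TNFa against TGFb it fell by 1.12 in KO (SE 0.10, adjusted p = 2.13e-10) and by 0.74 in WT (SE 0.10, adjusted p = 1.24e-06). CM against TNFa differed by 0.05 ± 0.10 in KO (adjusted p = 0.797), with a fall of 0.66 in WT (SE 0.10, adjusted p = 1.06e-05).

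JUND, which is made in resting cells and is the steadiest JUN protein, is encoded by Jund (ENSMUSG00000071076, chr8:71151599-71153265, + strand, mm39). Its level was 1155, 1149 and 990 in CM KO, against 899, 1183 and 888 in CM WT. Under TNFa the level was 777, 817 and 1229 in KO and 848, 837 and 940 in WT, and with TGFb it was 1234, 902 and 1292 in KO and 906, 1038 and 1055 in WT. Groups overlapped in each KO and WT pair, and Jund passed in no comparison. The KO difference averaged over treatments was 0.14, with a 95% interval of -0.05 to 0.32 (adjusted p = 0.324). TNFa KO against TGFb KO differed by -0.29 ± 0.16 (adjusted p = 0.197), and passed without TNFa KO 3 (-0.50, 0.0208) or TGFb KO 2 (-0.46, 0.0451).

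ATF3, a stress-induced bZIP protein that pairs with JUN proteins and often represses, is encoded by Atf3 (ENSMUSG00000026628, chr1:190902493-190950236, - strand, mm39). Its level was 1760, 1671 and 1967 in CM KO, against 1228, 1184 and 1121 in CM WT. With TNFa it was 1101, 1173 and 1264 in KO and 905, 1228 and 863 in WT, and with TGFb it was 2551, 2253 and 2317 in KO and 1647, 1469 and 1278 in WT. KO libraries lay above all WT libraries with CM and TGFb. In KO, Atf3 rose by 0.61 ± 0.12 with CM (adjusted p = 0.00115) and by 0.70 ± 0.12 with TGFb (adjusted p = 0.000123). With TNFa the difference was 0.255 ± 0.12 (adjusted p = 0.236), and it passed without TNFa WT 2, the library with 1228 (0.41, 0.04). Averaged over treatments the rise was 0.52 ± 0.07 (adjusted p = 1.43e-06), the smallest p of the members.

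Across treatments Atf3 had its highest mean with TGFb in each genotype, although CM WT against TGFb WT did not pass (-0.31 ± 0.12, adjusted p = 0.108). It fell by 1.01 in TNFa KO against TGFb KO (SE 0.12, adjusted p = 1.66e-07) and by 0.56 in TNFa WT against TGFb WT (SE 0.12, adjusted p = 0.00144). CM KO lay 0.40 below TGFb KO (-0.40 ± 0.12, adjusted p = 0.0327) and 0.61 above TNFa KO (0.61 ± 0.12, adjusted p = 0.000659). The first of these was lost without CM KO 1 (-0.39, adjusted p = 0.0996), CM KO 2 (-0.35, 0.132), TGFb KO 1 (-0.35, 0.14) or TGFb KO 3 (-0.42, 0.0683), and with equal totals (-0.30, 0.145). In WT, CM against TNFa differed by 0.25 ± 0.12 (adjusted p = 0.198), and passed without TNFa WT 2 (0.41, 0.0278).

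EGR1, a zinc finger factor and classical immediate-early protein outside AP-1, is encoded by Egr1 (ENSMUSG00000038418). Its level was 1689, 1804 and 1515 in CM KO, against 1521, 1992 and 1558 in CM WT. Under TNFa the level was 1940, 1871 and 1768 in KO and 1781, 1679 and 1862 in WT, and with TGFb it was 2725, 2173 and 2702 in KO and 1815, 2041 and 1767 in WT. TGFb KO stood above every other group, and the other 5 groups overlapped their neighbours in level. In KO, Egr1 rose with TGFb by 0.43 ± 0.11 (adjusted p = 0.00961), with -0.01 ± 0.11 for CM (adjusted p = 0.971) and 0.07 ± 0.11 for TNFa (adjusted p = 0.802). The rise was lost without TGFb KO 1 (0.37, adjusted p = 0.0645), TGFb KO 3 (0.38, 0.0575) or TGFb WT 3 (0.39, 0.0557), and with equal totals (0.32, 0.0517). In KO it fell by 0.60 in CM against TGFb (SE 0.11, adjusted p = 0.000465) and by 0.44 in TNFa against TGFb (SE 0.11, adjusted p = 0.00424), the second of which was -0.18 with equal totals (adjusted p = 0.228). No pair of treatments passed in WT. Averaged over treatments, the KO difference was 0.16 ± 0.07 (adjusted p = 0.0791), and it passed without TGFb KO 2 (0.20, 0.0261) or CM WT 2 (0.20, 0.0168) and with library weights (0.18, 0.0352).

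IER3 is a short-lived stress-response protein that affects cell survival. Its gene Ier3 (ENSMUSG00000003541, chr17:36132576-36133815, + strand, mm39) had a level of 570, 499 and 684 in CM KO, against 492, 606 and 575 in CM WT. With TNFa it was 572, 414 and 587 in KO and 406, 471 and 429 in WT, and with TGFb it was 744, 487 and 755 in KO and 418, 482 and 526 in WT. KO and WT libraries overlapped under each treatment, and Ier3 passed in no comparison. The KO difference was 0.46 ± 0.18 with TGFb (adjusted p = 0.107) and 0.26 ± 0.10 averaged over treatments (adjusted p = 0.0824). Without TGFb KO 2, the library with 487, the first was 0.66 (adjusted p = 0.0158), the second was 0.33 (0.0178), and TNFa KO against TGFb KO passed too (-0.53, 0.0368). The average also passed without TNFa KO 2 (0.31, 0.0312) and with library weights (0.28, 0.037).

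**Figure D2:**
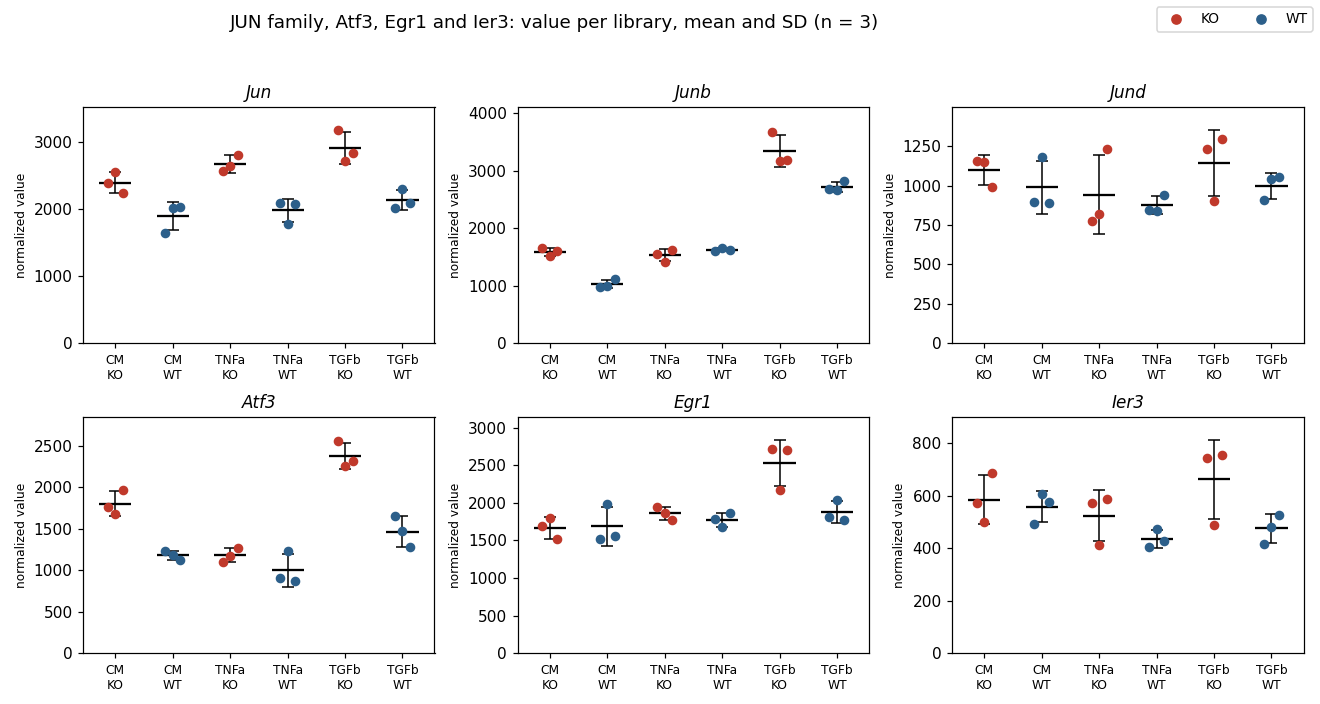
Normalized value of the JUN family genes, Atf3, Egr1 and Ier3 in each library (points), with the group mean and SD (black, n = 3), for KO (red) and WT (blue). Junb is highest in the 6 TGFb libraries, Jun is higher in KO than in WT under each treatment, and KO and WT overlap under each treatment for Jund and Ier3.

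Counted over the 10 members, the KO effect was upward where it passed. With CM, 4 members rose and 0 fell, against 9.39% of all genes tested called in either direction. These were Fos, Jun, Junb and Atf3. With TNFa, 2 rose and 0 fell (7.89% of all genes), namely Fosl1 and Jun. With TGFb, 6 rose and 0 fell (12.2% of all genes), namely Fos, Fosb, Jun, Junb, Atf3 and Egr1. For the average over treatments 6 rose and 0 fell (20.7% of all genes), with Fosl1 in place of Egr1 in the list for TGFb. No member fell at an unadjusted p below 0.05 in any of these comparisons, all fitted with limma. Jun was called under each treatment. The members' median difference was 0.16 with CM, 0.25 with TNFa, 0.44 with TGFb and 0.32 for the average, beside medians over all genes of -0.01, 0.02, -0.01 and 0.00. KO lay above WT without overlap for 4 members with CM, 3 with TNFa and 6 with TGFb, and below it for Fosl2 with TGFb. Such separation was seen in 25.7%, 24.8% and 26.7% of all genes for CM, TNFa and TGFb. Leaving out 1 library gave between 2 and 4 members called with CM, 1 and 2 with TNFa, and 4 and 7 with TGFb. The Kupffer cell and macrophage and the sinusoidal endothelial marker sums were higher in KO under every treatment without overlap. The hepatocyte share, in which Alb weighs most, was higher in KO with CM and TGFb, as given above. Of its 8 markers, 3 rose and 3 fell for the average over treatments. The part of these marker differences in the counts was not tested.

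**Figure D3:**
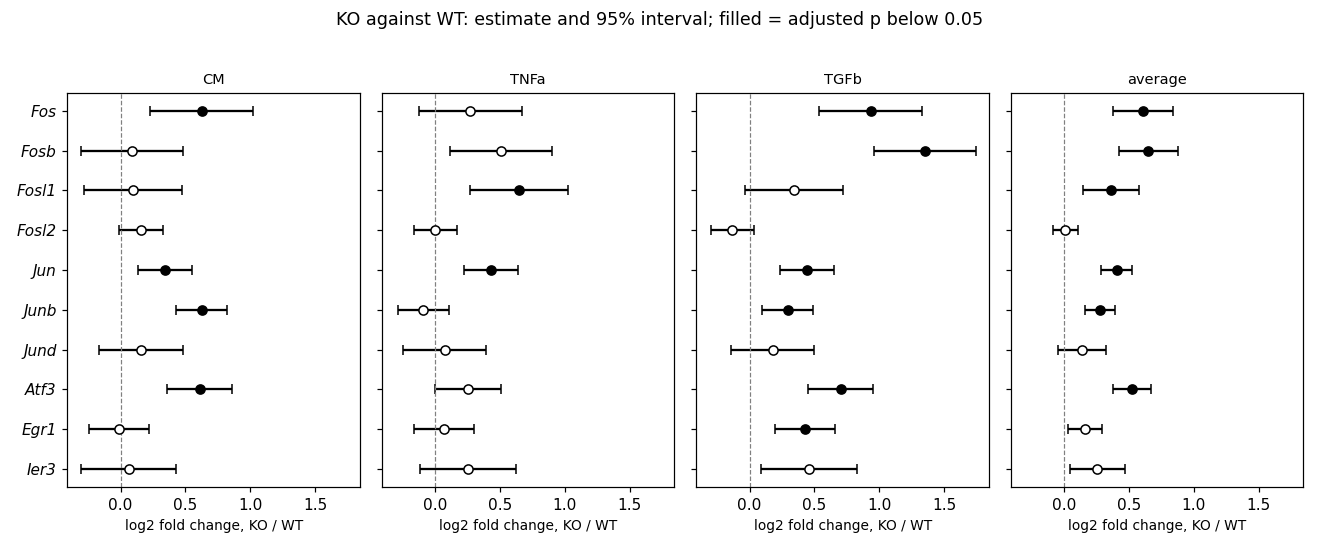
Log2 fold change of KO over WT for each member (horizontal axis) with its 95% interval, under CM, TNFa and TGFb and averaged over them; filled points have an adjusted p below 0.05. The filled points lie right of 0 in each panel, and the highest is Fosb with TGFb at 1.35.

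The size of the KO effect was compared between treatments directly, with few calls among members or among all genes. CM against TNFa gave 1 member (Junb, 0.72, as above), with 0.63% of all genes called. CM against TGFb gave 1 member (Fosb, -1.26), with 0.491% of all genes called. TNFa against TGFb gave 0 members by limma, with 1.1% of all genes called, although 5 members, Fos, Fosb, Junb, Atf3 and Egr1, had an unadjusted p below 0.05, each with a lower KO effect under TNFa. The members called with TGFb and not with TNFa are therefore not shown to differ between these treatments, apart from the Fosb fit given above. For Jun the KO effects differed by -0.10 between CM and TGFb, with a 95% interval of -0.40 to 0.19.

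The treatments were then compared within each genotype. These comparisons share libraries, since TGFb is the denominator of CM against TGFb and of TNFa against TGFb, so their values are given side by side only. In CM against TGFb, 0 members rose and 5 fell in KO (10.6% of all genes called in either direction), namely Fos, Fosb, Junb, Atf3 and Egr1, and 0 rose and 2 fell in WT (11.8% of all genes), namely Fosl2 and Junb. At an unadjusted p below 0.05, 0 members were higher in KO and 1 in WT. In TNFa against TGFb, 1 rose (Fosl1) and 5 fell in KO (22.4% of all genes), namely Fos, Fosb, Junb, Atf3 and Egr1, and 0 rose and 4 fell in WT (13.4% of all genes), namely Fos, Fosb, Junb and Atf3, with 1 member higher in WT at an unadjusted p below 0.05. In CM against TNFa, 2 rose (Fosb and Atf3) and 1 fell (Fosl1) in KO (12.7% of all genes), and 1 rose (Fosb) and 1 fell (Junb) in WT (12.3% of all genes). Junb and Fosb carried the widest differences, and Jun, Jund and Ier3 passed in no pair. Cell type markers also differed between treatments, as given above, and their part in these counts was not tested.

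**Figure D4:**
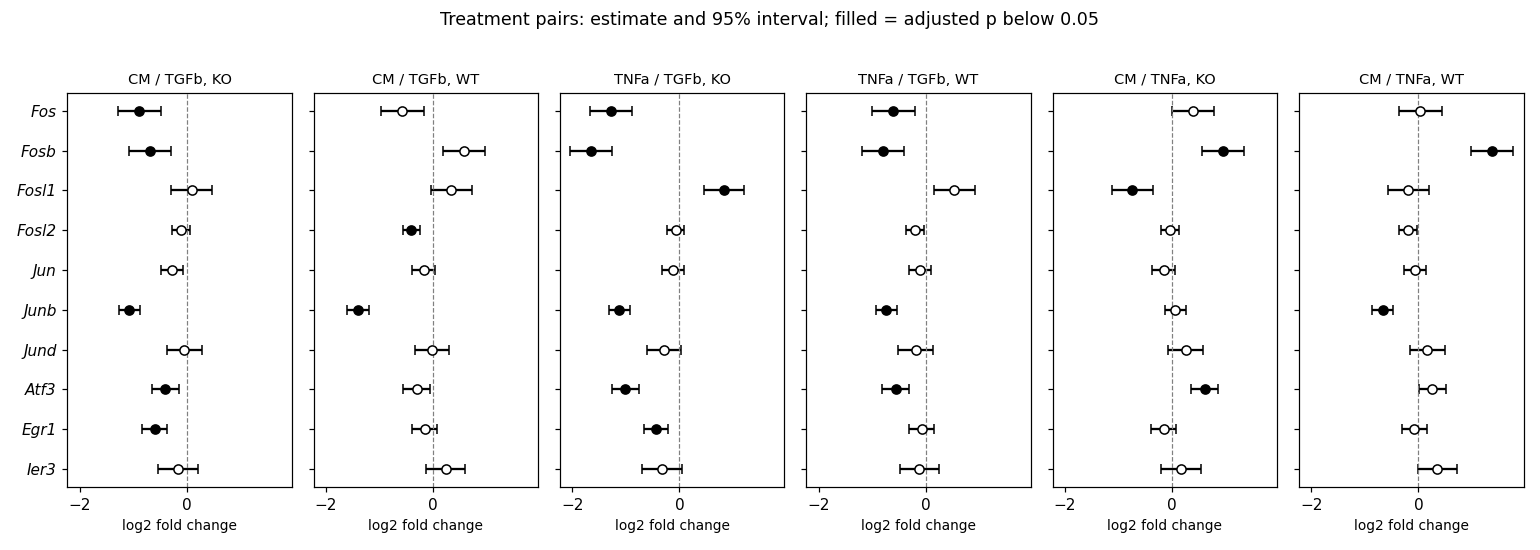
Log2 fold change of each member between a pair of treatments with its 95% interval, for KO and WT; filled points have an adjusted p below 0.05. Junb lies left of 0 in each comparison with TGFb, Fosb lies right of 0 in CM over TNFa, and Fosl1 lies right of 0 in TNFa over TGFb.

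Levels of different members were compared after division by exon length in GENCODE M21, whose gene span was the same as in the deposited table for 9 of the 10 members. In TGFb KO, Junb had the highest level per kb (1453 ± 123.2, SD, n = 3), with Atf3 next (1102 ± 72.8) and then Jun (911 ± 76.2), and these did not overlap. In TGFb WT, Junb was again highest (1183 ± 36.6), followed by Fosl2 (731 ± 45.8), which overlapped Atf3 (680.0 ± 85.5) and Jun (669 ± 45.8). In TNFa KO, Jun was highest (836 ± 40.2), and in TNFa WT it was Junb (709 ± 13.04). In CM KO, Atf3 (835 ± 70.4) and Jun (750 ± 48.9) overlapped at the top, and in CM WT the first 8 members overlapped from one to the next. Fosb had the lowest level per kb in each of the 6 groups, from 36.5 ± 4.53 in TNFa WT to 165 ± 36.0 in TGFb KO. Fosl2, whose summed value is the highest of the members, was not the highest per kb in any group.

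**Figure D5:**
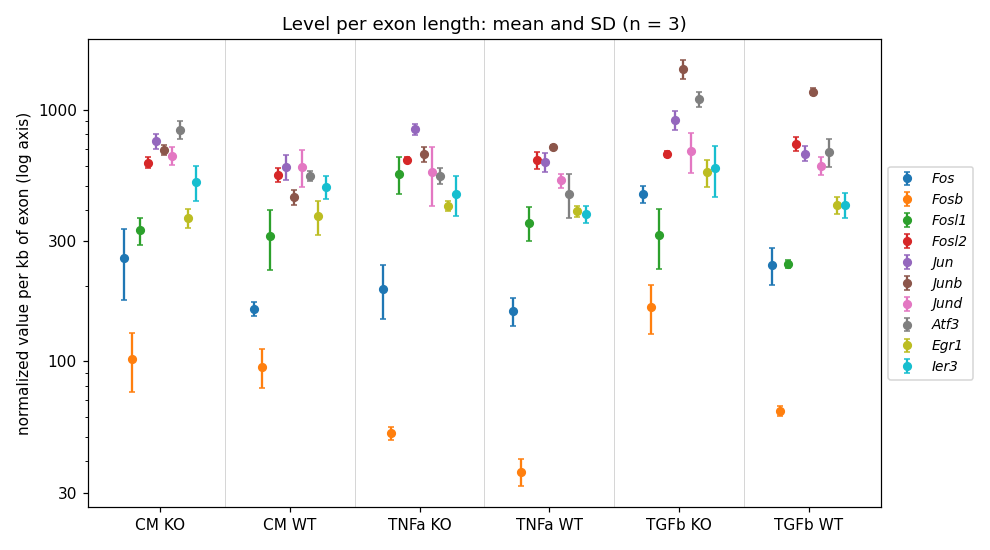
Normalized value per kb of exon (log axis) for the 10 members in the 6 groups, as mean and SD (n = 3). Junb is at the top with TGFb, and Fosb is at the bottom in each group.

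Genes that act with these members were read from lists by role. Of the 33 other immediate-early genes, 4 rose and 1 fell in KO with CM, 5 rose and 2 fell with TNFa, and 6 rose and 1 fell with TGFb, with list medians of 0.16, 0.24 and 0.23. Over all genes, 9.39% were called in either direction with CM, 7.89% with TNFa and 12.2% with TGFb, and the counts of this and the next lists stand beside these shares. Ccn1, a secreted matrix protein, rose by 0.43 ± 0.09 with CM (adjusted p = 0.0014) and by 0.58 ± 0.09 with TNFa (adjusted p = 3.84e-05). Rhob, a small GTPase, rose by 0.47 ± 0.10 with CM (adjusted p = 0.00164) and by 0.43 ± 0.10 with TNFa (adjusted p = 0.00498), the second lost without TNFa KO 3 (0.34, 0.053). Zfp36, which speeds decay of cytokine mRNA, rose by 0.72 ± 0.11 with TGFb (adjusted p = 2.57e-05), and Gadd45b, a stress sensor upstream of p38 and JNK, by 1.24 ± 0.25 (adjusted p = 0.000824). Ccn2, a profibrotic matrix protein, moved the other way. It averaged 2168 ± 30.9 in CM KO and 2929 ± 384 in CM WT (SD, n = 3 each) and fell by 0.43 (SE 0.11, adjusted p = 0.0112), a call lost without CM WT 3 (-0.32, 0.0812). With TGFb the KO difference of Ccn2 was -0.44 (adjusted p = 0.00613), a call kept with any 1 library left out. With TNFa it was -0.35 (adjusted p = 0.0459), a call kept in 7 of the 18 fits with a library left out. Btg2, a growth-restraining gene, fell by 0.32 with TNFa (adjusted p = 0.00891), lost without TNFa WT 3 (-0.26, 0.0857).

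Of the 11 other AP-1 family and bZIP partner genes, 8 could be tested. With CM 0 rose and 0 fell by limma (2 higher and 0 lower at an unadjusted p below 0.05), with TNFa 1 rose, and with TGFb 3 rose. Those with TGFb included the small MAF proteins' genes Maff (0.52 ± 0.13, adjusted p = 0.00481) and Mafk (0.46 ± 0.11, adjusted p = 0.00488). Maff was lost without TGFb KO 1 (0.39, 0.0686).

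The kinases and factors that feed AP-1 and the serum response moved in both directions. Of 24, 2 rose and 4 fell in KO with CM, 1 rose and 2 fell with TNFa, and 1 rose and 4 fell with TGFb, with list medians of -0.02, -0.01 and -0.07. Map2k3, a kinase that activates p38, averaged 2769 ± 54.3 in CM KO and 2179 ± 142 in CM WT, 2898 ± 225.5 in TNFa KO and 2014 ± 157 in TNFa WT, and 4355 ± 242 in TGFb KO and 2517 ± 38.5 in TGFb WT. It rose by 0.35 ± 0.09 (adjusted p = 0.0109), 0.525 ± 0.09 (adjusted p = 0.000186) and 0.79 ± 0.09 (adjusted p = 1.38e-07) with CM, TNFa and TGFb. Map3k5, which encodes the stress kinase ASK1, averaged 517 ± 48.8 in CM KO and 866.5 ± 123 in CM WT, 303 ± 32.8 in TNFa KO and 556 ± 23.3 in TNFa WT, and 292 ± 37.9 in TGFb KO and 621 ± 55.3 in TGFb WT. It fell by 0.74 (adjusted p = 0.00221), 0.88 (adjusted p = 0.000412) and 1.09 (adjusted p = 9.09e-06), each with SE 0.16. These calls on Map2k3 and Map3k5 were kept with any 1 library left out. Mapk14, the p38 kinase itself, fell by 0.44 with TGFb (SE 0.10, adjusted p = 0.00395) and by 0.41 with CM (SE 0.10, adjusted p = 0.0106), the second lost without CM KO 2 (-0.35, 0.0758) or CM WT 1 (-0.33, 0.0841).

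Of 22 genes commonly listed as AP-1 targets, 21 could be tested. In KO, 6 rose and 0 fell with CM, 5 rose and 2 fell with TNFa, and 5 rose and 0 fell with TGFb, and 1 gene each was lower with CM and TGFb at an unadjusted p below 0.05. The list medians were 0.38, 0.22 and 0.21. With CM the genes that rose included Hmox1, which degrades heme (0.71 ± 0.08, adjusted p = 2.3e-07), and Tnfrsf12a, the TWEAK receptor (0.62 ± 0.14, adjusted p = 0.00265). With TGFb, Hbegf, a growth factor of the EGF family, averaged 3188 ± 298 in KO and 1661 ± 106.3 in WT and rose by 0.94 ± 0.15 (adjusted p = 3.47e-05). Mmp12, the macrophage elastase, averaged 427 ± 47.7 in TGFb KO and 143 ± 40.7 in TGFb WT and rose by 1.61 ± 0.26 (adjusted p = 3.48e-05). With TNFa it rose by 1.86 ± 0.26 (adjusted p = 8.91e-06), Plau, the urokinase gene, rose by 2.47 ± 0.36 (adjusted p = 2.38e-05), and Spp1, which encodes osteopontin, fell by 1.81 (SE 0.27, adjusted p = 2.78e-05). Mmp12 and Plau are also made by macrophages, whose markers rose in KO, and the part of that difference was not tested.

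Of 10 genes of heat shock and cell isolation stress, 1 fell with CM (Hspb1, -0.999, adjusted p = 0.00414), and 1 rose with TNFa (Gadd45a, 0.69 ± 0.12, adjusted p = 0.000386) and with TGFb (Gadd45a, 0.73 ± 0.12, adjusted p = 8.74e-05). The sum of the 10 was 75390 to 79210 in CM KO and 72310 to 79660 in CM WT, 82130 to 88220 in TNFa KO and 81820 to 98400 in TNFa WT, and 66640 to 73390 in TGFb KO and 73540 to 76360 in TGFb WT. The ranges of KO and WT overlapped with CM and TNFa. With TGFb the highest KO sum, 73390, lay just below the lowest WT sum, 73540. Of the 10 genes 0 fell in KO with TGFb, and 2 were lower at an unadjusted p below 0.05 by limma. Hspa8 and Hsp90aa1 had the highest values of the 10.

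The same lists were read between treatments. In CM against TGFb, 2 of the 33 other immediate-early genes rose and 11 fell in each genotype, beside 10.6% of all genes called in either direction in KO and 11.8% in WT. In TNFa against TGFb 5 rose and 9 fell in KO (22.4% of all genes) and 4 rose and 8 fell in WT (13.4% of all genes). Of the 21 AP-1 targets tested, 4 rose and 6 fell in KO and 2 rose and 8 fell in WT in CM against TGFb, and 5 rose and 6 fell in KO and 3 rose and 4 fell in WT in TNFa against TGFb. Ccn2 averaged 2168 ± 30.9 in CM KO, 2453 ± 317 in TNFa KO and 5968 ± 314 in TGFb KO, and 2929 ± 384 in CM WT, 3144 ± 522 in TNFa WT and 8118 ± 372 in TGFb WT. Other genes of the same list were lower with TGFb. In TNFa against TGFb, Plk2 rose by 1.17 in KO (adjusted p = 7.58e-11) and by 1.05 in WT (adjusted p = 1.72e-09). Dusp6 rose by 0.81 in KO (adjusted p = 4.05e-07) and by 0.84 in WT (adjusted p = 5.68e-07). Of the targets, Lif, a cytokine of the IL-6 family, averaged 370 ± 54.7 in CM KO, 317 ± 55.1 in TNFa KO and 1286 ± 198.5 in TGFb KO, and 301 ± 19.1 in CM WT, 238 ± 20.8 in TNFa WT and 1419 ± 40.3 in TGFb WT. Ccl2, a chemokine that attracts monocytes, went the other way, at 2442 ± 199 in CM KO, 3782 ± 354 in TNFa KO and 550.1 ± 177 in TGFb KO, and 1766 ± 334 in CM WT, 3776 ± 574.5 in TNFa WT and 367 ± 60.4 in TGFb WT. In TNFa against TGFb, Lif fell by 2.02 in KO (adjusted p = 8.27e-11) and differed by -2.58 in WT (adjusted p = 1.24e-12), and Ccl2 rose by 2.83 in KO (adjusted p = 3.41e-13) and by 3.36 in WT (adjusted p = 2.57e-14).

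The pattern of a member over the 6 groups was compared with that of other tested genes, for the 5 members whose means of log2(value + 1) spanned at least 1. The measure was the root mean square difference of these group means after centring. Genes whose symbol starts with Gm and a digit or ends in Rik were left out, also from the counts below. The nearest genes to Fos were Hsd11b1 (0.14), Akr7a5 (0.14) and Hoga1 (0.15), those to Fosb were Srr (0.12), Sema4g (0.12) and Pdzk1 (0.14), and those to Fosl1 were Dusp5 (0.08), Timm9 (0.08) and Ska2 (0.09). For Junb they were Pde2a (0.11), Las1l (0.11) and Nudt18 (0.13), and for Atf3 they were Cyp2c29 (0.04), Hrg (0.04) and Hsd17b6 (0.06). At the same cut-off on this difference, 299 genes were near Atf3 and 151 near Fosl1. The counts were 25 for Fos, 27 for Fosb and 12 for Junb. The genes named are therefore examples from larger sets, above all for Atf3 and Fosl1.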

How the data were processed

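Each gene had 1 signal value per library, which the authors had normalized with DESeq2 before deposit, per the name of the deposited table. The submitters' processing notes list STAR 2.7.8a, Partek and DESeq2 and the build mm39, with neither order nor settings. Of the low values, 63.1% to 77.4% per library lay close to a whole multiple of 1 step, which is short of nearly all. Whole reads were therefore not recovered and no count test was run. The estimated depth of 19.4 to 35.6 M reads limits the precision of low genes.

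Log2 of the value plus 1 was modelled. Genes reaching 10 in 3 or more libraries were kept. A limma-trend model (limma 3.58.1, R 4.3.3) with 6 group means was fitted to all 18 libraries, with 12 residual degrees of freedom, and p-values were Benjamini-Hochberg adjusted over 14455 genes. The model was tested on simulated data. Replicate numbers were not taken as pairs: of 45 same-numbered pairs of libraries, 0 had deviations correlated above 0.1. P-values measure the spread between these libraries. Alternatives were other pseudocounts, filters, scalings, weights, smaller fits, a replicate block and leaving out each library. Named were all members, up to 3 called genes with the smallest p-values per list and comparison, and the 3 genes nearest in pattern, with some left out. Members and lists were chosen with earlier results of these data known. Promoters came from RefSeq. Python 3.11.15, pandas 2.3.3 and matplotlib 3.10.9 were used.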

Additional observations from a re-analysis of the deposited data

Results flagged for a closer look

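The KO effect differed between treatments for 2 members by the test of the difference itself in the limma model. For Fosb, the KO effect with CM less that with TGFb was -1.26 (SE 0.27, adjusted p = 0.0279), from 824, 600 and 494 in CM KO and 650, 661 and 474 in CM WT, and 1196, 773 and 1118 in TGFb KO and 377, 409 and 404 in TGFb WT. Its call was lost without TGFb KO 1 or 3, TGFb WT 1, 2 or 3, CM KO 2 or 3, or CM WT 1 or 2, with estimates between -1.28 and -1.09. For Junb, the KO effect with CM less that with TNFa was 0.72 (SE 0.14, adjusted p = 0.0096), from 1656, 1514 and 1605 in CM KO and 978, 1006 and 1112 in CM WT, and 1548, 1424 and 1628 in TNFa KO and 1603, 1662 and 1629 in TNFa WT. This call was kept with any 1 library left out.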

How the results depend on the processing

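Over 3630 member values recomputed under 10 other settings and with each of the 18 libraries left out, 0 called values changed sign, and 62 uncalled ones did, with a log2 fold change of at most 0.12 as reported. In CM against TGFb in WT, 2 members were called, and 4 with a pseudocount of 5, 4 with only genes of mean 50 or more and 4 with the replicate block. In KO against WT with CM, 4 were called, and 2 with equal totals and 2 when only the groups compared were fitted. In KO against WT with TNFa, 2 were called, and 1 when only the groups compared were fitted. The causes were not tested. The calls gained with the replicate block were Fos (-0.575, adjusted p = 0.0225) and Fosb (0.57, adjusted p = 0.0486). The block moved no other count by over 1.5 times and changed no other call on a member. Replicate numbers were the best match for 32 of 90 library and group comparisons. Equal totals moved the median difference of all genes to -0.12 in KO against WT with TGFb, 0.29 in TNFa against TGFb in KO, 0.11 in the same pair in WT, 0.10 in CM against TGFb in KO and -0.17 in CM against TNFa in KO.

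Leaving out 1 library gave 1 to 2 members called in KO against WT with TNFa, 4 to 7 with TGFb, 2 to 4 with CM and 6 to 8 for the average. In the treatment pairs it gave 3 to 5 for TNFa against TGFb, 2 to 4 for CM against TGFb and 2 to 3 for CM against TNFa in WT, and 6 to 8, 3 to 5 and 3 to 3 for these pairs in KO. The differences of KO effects gave 0 to 1 for TNFa less TGFb, 0 to 1 for CM less TGFb and 1 to 1 for CM less TNFa. The fit of only the groups compared was not run for the average, which uses all groups.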

Other observations

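In TGFb KO, replicate 2 was the lowest library for 8 of the 10 members and replicate 1 the highest for 7. In CM WT, replicate 2 was the highest for 6 and the lowest for 0. In TNFa KO, replicate 3 was the highest for 6. The estimated depth was 28.4, 23.1 and 21.5 M reads in TGFb KO 1, 2 and 3. Mitochondrially encoded genes held 5.52% to 7.44% of the summed values in TGFb KO and 4.3% to 5.34% in TGFb WT.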
